A study of Homo sapiens with 6 samples.

Results

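The insulin-like growth factor (IGF) binding proteins and receptors were examined in TC28a2 cells, an immortalized human chondrocyte line, as 10 genes taken by symbol from the deposited count table: *IGFBP1* to *IGFBP7*, the receptors *IGF1R* and *IGF2R*, and the ligand *IGF2*. The table lists 60623 genes and holds each of the 10. Of these, 9 had enough reads to be tested, as part of 13966 genes over the whole table, and *IGFBP1* had not. Cells received either 2 μM mocetinostat, which inhibits class I histone deacetylases (HDACs), or dimethyl sulfoxide (DMSO) as the vehicle control, and RNA was collected after 24 hours. Each condition has 3 samples, which the study describes as independent experiments; no untreated or second-drug arm and only 1 line were analysed here. p-values therefore measure the spread between these samples of 1 line.

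IGFs are small secreted hormones that promote growth, survival, and matrix synthesis, and IGF1 is a classic anabolic factor for cartilage. Both IGFs act through IGF1R, a tyrosine kinase that signals through IRS adaptors to PI3K and AKT, while IGF2R has no kinase and carries IGF2 to the lysosome. Most IGF in tissue fluid is held by IGF binding proteins, which keep it from the receptor, store it on matrix, or release it once proteases cut them.

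After mocetinostat treatment, *IGFBP2*, *IGFBP3*, and *IGFBP5* transcripts were 8.87-fold to 19.99-fold higher, *IGF2* was 16.5-fold higher, and *IGFBP7* was 2.11-fold higher. *IGFBP4*, *IGF1R*, and *IGF2R* were between 1.16-fold and 1.28-fold higher, and *IGFBP6* did not pass the test. With Benjamini-Hochberg adjusted p-values from edgeR's quasi-likelihood test, 5 of the 9 tested genes were upregulated genes (URGs, adjusted p under 0.05 and log2 fold change over 1), against a background of 20.2% of the 13966 genes tested. None was a downregulated gene (DRG), against a background of 8.18%, and 28.4% of all genes were called in either direction. DESeq2 called 0 of them downregulated as well, and 0 were lower at an unadjusted p under 0.05 in edgeR. The median log2 fold change of the 9 genes was 1.08, beside -0.0021 over all genes tested. *IGF2* had enough reads for testing only through the mocetinostat-treated samples. Its place in these counts thus rests on the condition where it is higher. In bulk RNA, a change in the share of cells expressing a gene and a change in its RNA per cell cannot be told apart.

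Total counts per sample were between 4873426 and 11031132 with DMSO and between 1619344 and 5089542 with mocetinostat, so that 3 counts stood for 0.271 to 0.625 CPM (counts scaled to a total of 1000000) in the former and for 0.595 to 1.86 CPM in the latter. CPM values here were scaled by edgeR's TMM factors. The 10 genes held 0.103% to 0.107% of all counts with DMSO and 0.173% to 0.181% with mocetinostat. Chondrocyte identity was checked on a list of 13 markers, of which 9 were tested and 6 were URGs, against the background of 20.2% (summed 122 to 145 CPM with DMSO and 266 to 309 CPM with mocetinostat). *SOX9*, the master factor of cartilage, was present in both conditions (106 CPM with DMSO, 180 CPM with mocetinostat). *COL2A1* and *ACAN*, which encode the major collagen and proteoglycan of cartilage, were at 2.20 and 4.72 CPM with DMSO and at 28.7 and 33.3 CPM with mocetinostat. *COL9A2* did not pass the test (edgeR adjusted p = 0.435), and *SOX6*, *COL9A1*, *COL11A1*, and *CHAD* were not tested. *COL1A1*, a fibroblast marker, was at 4544 and 3932 CPM, with groups that overlapped. Other fibroblast markers went both ways by log2 fold change: *COL1A2* (1.73), *PDGFRA* (3.82), and *THY1* (0.75) were higher and *COL3A1* (-1.35) was lower.

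Marker lists of other cell types also held called genes, to be read against backgrounds of 20.2% URGs and 8.18% DRGs. Of 4 tested epithelial markers 3 were URGs (summed 900 to 1083 CPM with DMSO, 1936 to 1989 CPM with mocetinostat), and of 4 endothelial markers 3 were URGs (5.07 to 7.71 CPM and 39.0 to 45.6 CPM). Of 5 tested fibroblast markers 2 were URGs and 1 was a DRG (4655 to 5627 CPM and 4310 to 4691 CPM). Blood and liver markers had 1 tested gene each, a URG in both cases, with summed levels of at most 2.71 CPM with DMSO and 11.2 CPM with mocetinostat; *CD3E*, *HBB*, and *TTR* were listed at 0 in every sample. Testing needed enough reads in 3 samples. *PECAM1*, *VWF*, and *KDR*, at means of 1.27, 1.53, and 0.337 CPM with DMSO, met that only through their mocetinostat levels. So did, for example, *EPCAM*, *CDH1*, *CD14*, *SERPINA1*, and *PDGFRA*, and *SOX5* and *COMP* among the chondrocyte markers. The counts of URGs among markers were therefore partly set by the filter. Genes of the background could enter in the same way. The part of these marker changes in the IGF results was not tested.

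Upstream sequences of the binding protein genes are given here because the 3 genes with the largest rises among them, *IGFBP2*, *IGFBP3*, and *IGFBP5*, can be set beside *IGFBP4*, the most abundant binding protein transcript with DMSO. Each is the 250 bases before the RefSeq transcription start (GRCh38.p14), read 5′ to 3′ on the gene's strand: *IGFBP2* at chr2:216633170-216633419 (+), *IGFBP3* at chr7:45921273-45921522 (-), *IGFBP4* at chr17:40443200-40443449 (+), and *IGFBP5* at chr2:216695550-216695799 (-). *IGFBP2* has 3 RefSeq windows, and the one nearest the start of the MANE Select transcript was used. Capitals mark matches on either strand to any of 5 motifs, namely TATAAA and its variant TATATA for the TATA box, CCAAT for the box of that name, CACGTG for the E-box, and GGGCGG for the GC box. None of these letter strings contains another.
IGFBP2: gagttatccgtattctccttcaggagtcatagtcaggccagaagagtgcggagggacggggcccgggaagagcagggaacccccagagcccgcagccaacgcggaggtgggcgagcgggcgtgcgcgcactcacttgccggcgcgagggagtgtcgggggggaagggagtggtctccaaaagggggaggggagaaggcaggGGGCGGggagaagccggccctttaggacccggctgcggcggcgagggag
IGFBP3: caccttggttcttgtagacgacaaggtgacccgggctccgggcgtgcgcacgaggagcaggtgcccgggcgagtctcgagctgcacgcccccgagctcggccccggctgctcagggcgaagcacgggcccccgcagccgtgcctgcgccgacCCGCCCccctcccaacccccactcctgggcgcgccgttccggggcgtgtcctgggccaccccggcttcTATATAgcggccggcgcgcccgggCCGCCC
IGFBP4: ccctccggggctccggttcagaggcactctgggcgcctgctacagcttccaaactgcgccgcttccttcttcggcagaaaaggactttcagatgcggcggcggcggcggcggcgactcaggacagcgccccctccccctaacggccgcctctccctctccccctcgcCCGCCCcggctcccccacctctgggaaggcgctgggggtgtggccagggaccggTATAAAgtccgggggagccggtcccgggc
IGFBP5: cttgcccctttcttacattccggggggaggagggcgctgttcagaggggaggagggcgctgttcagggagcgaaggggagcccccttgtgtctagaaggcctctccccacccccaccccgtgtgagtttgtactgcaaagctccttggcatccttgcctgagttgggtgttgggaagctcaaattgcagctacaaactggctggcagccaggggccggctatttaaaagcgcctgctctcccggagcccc

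The window of *IGFBP3* holds TATATA at bases -30 to -25, counted from the start site, and GGGCGG on the opposite strand at -98 and at -6. *IGFBP4* has TATAAA at -29 to -24 and a GGGCGG on the opposite strand at -83. *IGFBP2* holds 1 GGGCGG, at -49, and *IGFBP5* holds no exact match to the 5 motifs. Only exact strings were searched, and the *IGFBP5* window holds tatttaaa near the start site, a TATA-like string outside the set. Among 35116 upstream windows of the same length, GGGCGG occurred in 42.6%, CCAAT in 32.01%, TATAAA in 10.7%, CACGTG in 6.34%, and TATATA in 3.73%. The 4 windows also differ in CG dinucleotides, with 32 in *IGFBP3*, 24 in *IGFBP4*, 22 in *IGFBP2*, and 8 in *IGFBP5*, beside a median of 11 over all windows. Thus the 3 binding protein genes with the largest rises share no exact match to this set, and *IGFBP4*, which was 1.21-fold higher, shares GGGCGG with *IGFBP2* and *IGFBP3*. Whether they share other variants of these motifs was not tested. Windows of the same kind for *IGFBP6*, *IGF1R*, and *IGF2R* hold 9, 48, and 33 CG dinucleotides; that of *IGF1R* exceeds 99.7% of all windows. *IGFBP1*, *IGFBP7*, and *IGF2* had no window in the table.

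The ligand *IGF2*, on chromosome 11 (2129112 to 2158391, minus strand, GRCh38), encodes the growth factor of fetal and cartilage tissue. It had 13, 2, and 18 counts in the DMSO-treated samples and 122, 42, and 57 counts in the mocetinostat-treated samples, or 1.18, 0.416, and 2.65 CPM against 24.2, 26.0, and 23.6 CPM. Every mocetinostat-treated sample was above every DMSO-treated one. In relative terms the DMSO-treated samples differed more among themselves, at 2 to 18 counts, so that their levels are imprecise. The log2 fold change was 4.05 (SE 0.32, 95% interval 3.41 to 4.69, adjusted p = 1.51e-18 by edgeR's quasi-likelihood test). It was 4.65 without DMSO replicate 3, the sample with the highest DMSO level. Exons of *IGF2* overlap those of the read-through gene *INS-IGF2* over 20.4% of their bases, of ENSG00000284779 over 37.9%, and of the antisense gene *IGF2-AS* over 4.66%. All 3 were listed at 0 counts in every sample, and how the authors' counting treated reads shared by genes is not given in the sources used here, so that the *IGF2* level is uncertain to that extent. *IGF1*, encoding the other IGF, was not tested, with 0, 2, and 1 counts in the DMSO-treated samples and 4, 7, and 0 in the others; *INS*, the insulin gene, was listed at 0.

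The signalling receptor *IGF1R* (chromosome 15, 98648539 to 98964530, plus strand) was at 296.5, 296.9, and 292.5 CPM with DMSO and at 348.7, 350.8, and 328.2 CPM with mocetinostat. The groups did not overlap, and the shift was small. The log2 fold change was 0.21 (SE 0.08, 95% interval 0.06 to 0.37, edgeR adjusted p = 0.0132), and the adjusted p was over 0.05 in 4 of the 14 alternatives that test for any change. It was 1.0 with edgeR's glmTreat, an additional alternative that tests for a log2 change beyond 1 and gave 1.0 for *IGF2R* and *IGFBP4* as well. The clearing receptor *IGF2R* (chromosome 6, 159969082 to 160113507, plus strand) was at 495.5, 497.1, and 525.8 CPM with DMSO and at 661.6, 643.9, and 630.8 CPM with mocetinostat. Here too each treated sample exceeded each control, with a log2 fold change of 0.35 (SE 0.07, 95% interval 0.21 to 0.49, edgeR adjusted p = 1.39e-05); besides glmTreat, the adjusted p was over 0.05 in 1 of 14 alternatives, the one without an expression filter.

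The ratio of *IGF2R* to *IGF1R* counts, which needs no scaling between libraries, compares the clearing receptor with the signalling one. It was 1.67, 1.67, and 1.80 with DMSO and 1.90, 1.84, and 1.92 with mocetinostat. The ranges did not touch, with a 1.10-fold difference (exact permutation test, two-sided, p = 0.1, which is the smallest p that 3 samples against 3 allow). After all libraries were thinned to 1619344 counts, the exact permutation p was 0.3.

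*IGFBP3* and *IGFBP1* are neighbours on chromosome 7, lying tail to tail 18.6 kb apart. *IGFBP3* (45912245 to 45921874, minus strand) encodes the main IGF carrier of serum, which forms a long-lived complex with IGF and the acid-labile subunit. It was at 23.8, 27.3, and 28.9 CPM with DMSO and at 253.4, 255.9, and 253.6 CPM with mocetinostat. The treated samples were nearly alike and lay far above the controls, with a log2 fold change of 3.27 (SE 0.11, 95% interval 3.05 to 3.48, edgeR adjusted p = 1.12e-39). *IGFBP1* (45888360 to 45893660, plus strand) encodes the binding protein that liver makes under low insulin. It had 0 counts in every sample except mocetinostat replicate 3, with 2 counts, so no fold change is given; 3 counts would stand for 0.271 to 1.86 CPM in these libraries.

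*IGFBP2* and *IGFBP5* form a second tail-to-tail pair, 7.67 kb apart on chromosome 2. *IGFBP2* (216632828 to 216664436, plus strand), whose protein binds integrins through an RGD motif besides binding IGFs, was at 2.08, 3.75, and 6.04 CPM with DMSO and at 74.1, 78.7, and 72.1 CPM with mocetinostat. The treated samples were close together, while the 3 controls, at 23, 18, and 41 counts, spread over a wider relative range. Its log2 fold change of 4.32 (SE 0.20, 95% interval 3.92 to 4.73, edgeR adjusted p = 1.85e-30) was the largest estimate among the 9 tested genes, with an interval that overlaps that of *IGF2*. Leaving out a sample gave 3.86 to 4.79. *IGFBP5* (216672105 to 216695549, minus strand), encoding a binding protein that attaches to extracellular matrix and bone mineral, was at 15.7, 15.6, and 17.8 CPM with DMSO and at 153.8, 149.97, and 132.2 CPM with mocetinostat. No treated sample came near the controls, and the log2 fold change was 3.15 (SE 0.13, 95% interval 2.89 to 3.41, edgeR adjusted p = 3.86e-34). An antisense gene, *DIRC3-AS1*, overlaps 7.53% of the *IGFBP5* exon bases but had at most 24 counts in any sample.

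Both genes of this pair rose, and the ratio of their counts compares them within each library. *IGFBP2* to *IGFBP5* was 0.135, 0.245, and 0.342 with DMSO and 0.482, 0.526, and 0.546 with mocetinostat. The groups did not overlap, and the ratio was 2.31-fold higher with mocetinostat (exact permutation test, two-sided, p = 0.1, the smallest possible here). After thinning to 1619344 counts the exact permutation p was 0.2. The log2 difference of 1.21 ranged from 0.84 to 1.51 when 1 sample was left out, and the low *IGFBP2* counts with DMSO limit its precision.

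*IGFBP7* (chromosome 4, 57030773 to 57110385, minus strand) encodes a matrix-bound relative that holds IGFs only weakly. It was at 49.0, 51.9, and 56.4 CPM with DMSO and at 116.8, 107.2, and 105.3 CPM with mocetinostat. All treated samples exceeded all controls, with a log2 fold change of 1.08 (SE 0.11, 95% interval 0.85 to 1.30, edgeR adjusted p = 3.72e-13). The interval spans the log2 threshold of 1, and the gene was not a URG without the expression filter (0.82) or when edgeR's glmTreat tested for a change beyond that threshold (adjusted p = 0.406). Exons of *POLR2B* on the opposite strand overlap 13.5% of the *IGFBP7* exon bases; the counts of *POLR2B* were 2602, 945, and 1256 in the DMSO-treated samples and 777, 226, and 418 after mocetinostat. Whether the counting used strand is not given in the sources used here.

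*IGFBP4* (chromosome 17, 40443450 to 40457725, plus strand) encodes an inhibitory binding protein that the protease PAPPA cuts. Its levels of 133.1, 153.3, and 148.8 CPM with DMSO lay just under those of 162.0, 192.7, and 173.2 CPM with mocetinostat. The log2 fold change was 0.27 (SE 0.09, 95% interval 0.08 to 0.46, edgeR adjusted p = 0.00927), with an adjusted p over 0.05, besides glmTreat, in 4 of 14 alternatives, among them DESeq2 (adjusted p = 0.0586). *IGFBP6* (chromosome 12, 53097436 to 53102345, plus strand), whose protein prefers IGF2 over IGF1, was at 12.7, 14.4, and 11.5 CPM with DMSO and at 12.5, 10.5, and 7.87 CPM with mocetinostat. The groups overlapped, with a log2 fold change of -0.26 (SE 0.25, 95% interval -0.75 to 0.23, edgeR adjusted p = 0.357); the interval leaves out a change as large as those of *IGFBP2*, *IGFBP3*, and *IGFBP5*.

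Thus 8 of the 9 tested genes had an adjusted p under 0.05 in the direction of higher levels with mocetinostat, a result that 32.9% of all genes gave, and the same 8 had groups that did not overlap, as did 66.5% of all genes. A log2 fold change over 3 with an adjusted p under 0.05 was reached by 6.61% of all genes and by 4 of the 9, namely *IGFBP2*, *IGFBP3*, *IGFBP5*, and *IGF2*. *IGF2*, at 1.18, 0.416, and 2.65 CPM with DMSO, passed the expression filter only through its mocetinostat levels. Its entry in these counts was thus partly set by the filter, as could be that of other genes in the background. Scaling to *GAPDH*, itself lower with mocetinostat (log2 fold change -0.53, edgeR adjusted p = 2.58e-12), gave a median log2 fold change over all genes of 0.53 and 4425 URGs and 284 DRGs in place of 2827 and 1142, or 94.0% URGs in place of 71.2%. The TMM factors without the expression filter gave a median of -0.25 and 60.2% URGs. Relative to the median of all genes, *IGF1R* was 0.21 higher under both scalings and *IGFBP6* was 0.25 lower under both.

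**Figure D1:**
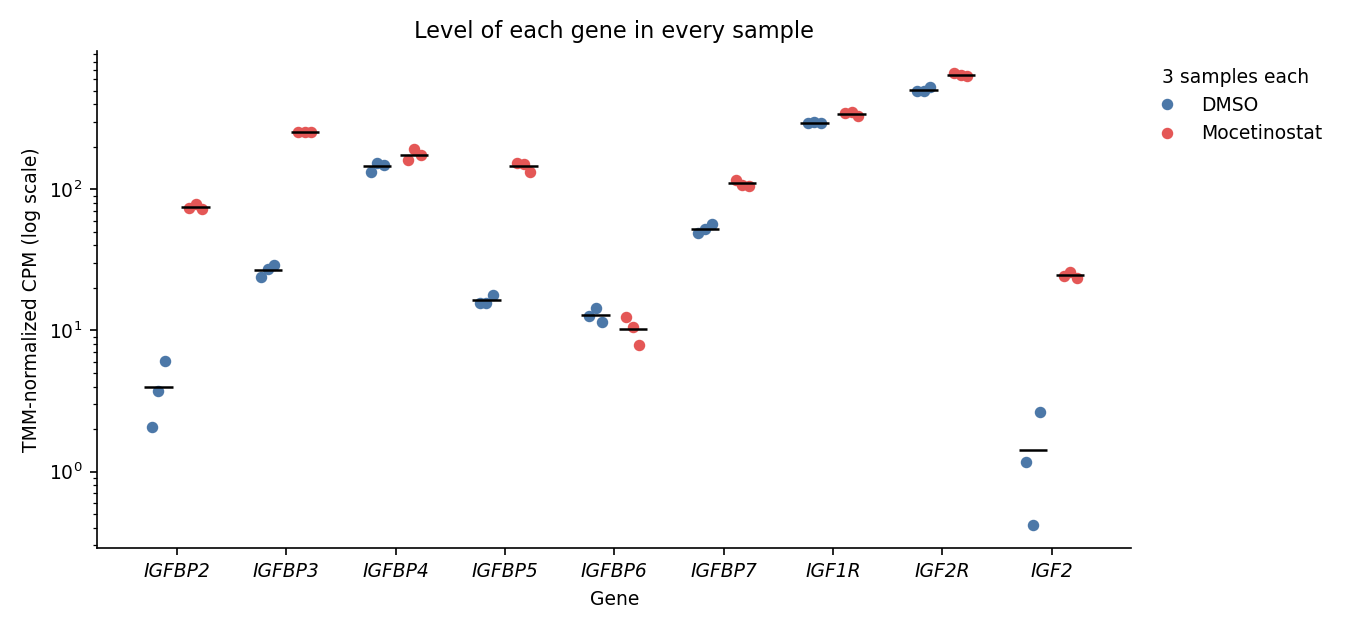
TMM-normalized CPM on a log axis for the 9 tested genes, with 1 point per sample (blue, DMSO; red, mocetinostat; 3 samples each) and a line at each mean. *IGFBP2*, *IGFBP3*, *IGFBP5*, *IGFBP7*, and *IGF2* show a clear gap between conditions, while the points of *IGFBP6* overlap.

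**Figure D2:**
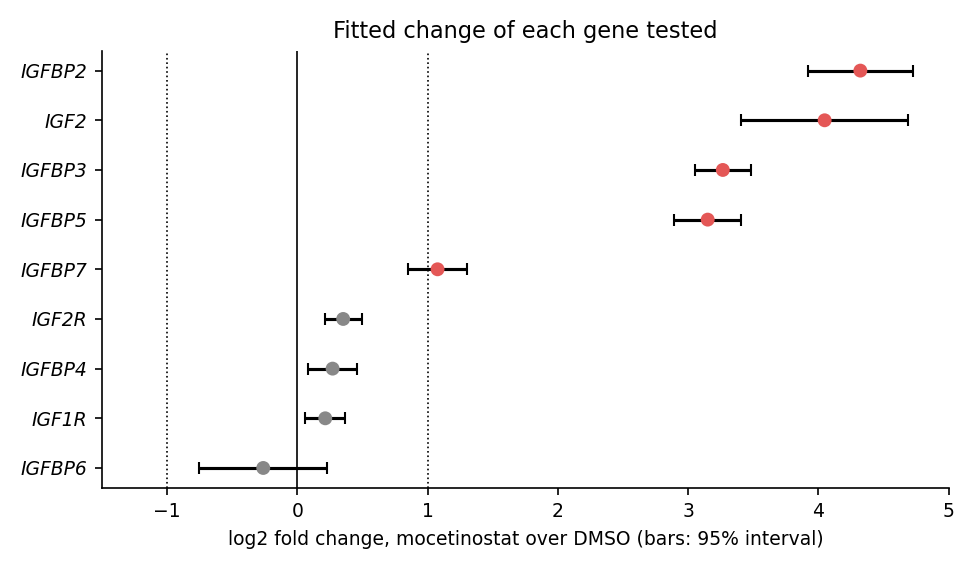
Fitted log2 fold change of each tested gene, mocetinostat over DMSO, with its 95% interval. Estimates run from -0.26 for *IGFBP6* to 4.32 for *IGFBP2*; the interval of *IGFBP7* (0.85 to 1.30) crosses the threshold of 1.

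**Figure D3:**
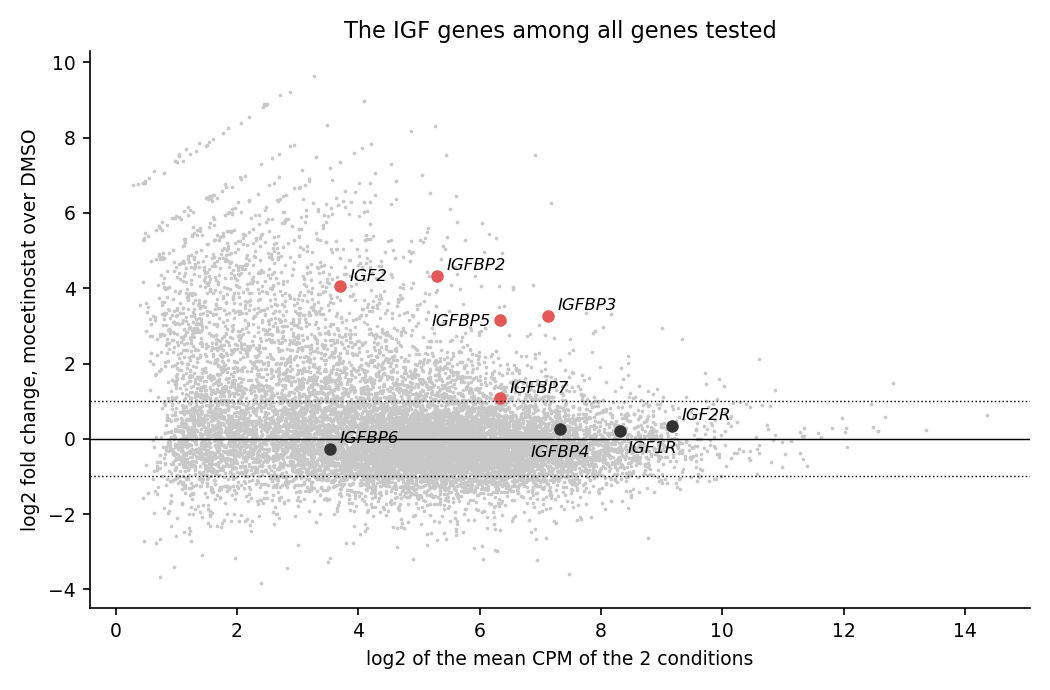
Log2 fold change against the log2 of the mean CPM of both conditions for the 13966 genes tested (grey), with the 9 IGF genes in color (red, URGs; black, others). Dotted lines mark log2 fold changes of -1 and 1; *IGF2*, *IGFBP2*, *IGFBP3*, and *IGFBP5* lie above 3, and many other genes lie as high.

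Levels between genes were compared per kilobase of annotated exon. With DMSO the order of mean CPM per kilobase was *IGFBP4* (65.8), *IGFBP7* (27.2), *IGF2R* (22.4), *IGF1R* (21.2), *IGFBP6* (9.54), *IGFBP3* (5.83), *IGFBP5* (2.54), *IGFBP2* (0.834), and *IGF2* (0.198), and no neighbours in that order overlapped over their 3 samples. With mocetinostat *IGFBP4* (79.8) still led, followed by *IGFBP7* (56.9) and *IGFBP3* (55.7), whose ranges overlapped. *IGF2R* (28.5), *IGF1R* (24.6), *IGFBP5* (22.5), *IGFBP2* (15.8), *IGFBP6* (7.65), and *IGF2* (3.44) came next, and the ranges of *IGF1R* and *IGFBP5* overlapped. By annotated exon length, *IGFBP3* thus passed both receptors and *IGFBP6*, and *IGFBP2* and *IGFBP5* passed *IGFBP6*. The order depends on the transcript length. With the length of the MANE Select transcript, an alternative chosen after seeing the data, *IGFBP3* led with mocetinostat (97.3 CPM per kilobase). *IGFBP4* (79.8) and *IGFBP7* (76.9) followed and overlapped, and *IGFBP2* (53.0) lay above *IGF2R* (45.9) and *IGF1R* (28.0). With DMSO and these lengths, *IGFBP7* (36.8) and *IGF2R* (36.0) overlapped, as did *IGFBP2* (2.80) and *IGFBP5* (2.63).

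The summed level of the IGF binding protein transcripts was 236.4, 266.1, and 269.5 CPM with DMSO and 772.6, 795.1, and 745.2 CPM with mocetinostat. The means were 257 ± 18.2 and 771 ± 25.0 CPM (SD, n = 3 each), a 3.00-fold difference with no overlap. Per kilobase of exon the difference was 2.13-fold, with means of 112 and 238. That size depends on the length used: with MANE Select lengths the means were 132 and 341 CPM per kilobase. The makeup of this pool shifted. *IGFBP4* made up 58.9% ± 0.804 of the summed CPM per kilobase with DMSO and 33.5% ± 2.36 with mocetinostat (SD, n = 3). *IGFBP3* went from 5.22% to 23.4%, *IGFBP5* from 2.27% to 9.42%, and *IGFBP2* from 0.736% to 6.63%. *IGFBP7*, although higher in level, had shares of 24.3% and 23.9%, and *IGFBP6* went from 8.56% to 3.20%. With MANE Select lengths the mean shares of *IGFBP4* were 49.9% and 23.4%, those of *IGFBP3* 7.73% and 28.5%, those of *IGFBP7* 27.9% and 22.5%, and those of *IGFBP2* 2.09% and 15.5%. No test is given for these sums over chosen genes.

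**Figure D4:**
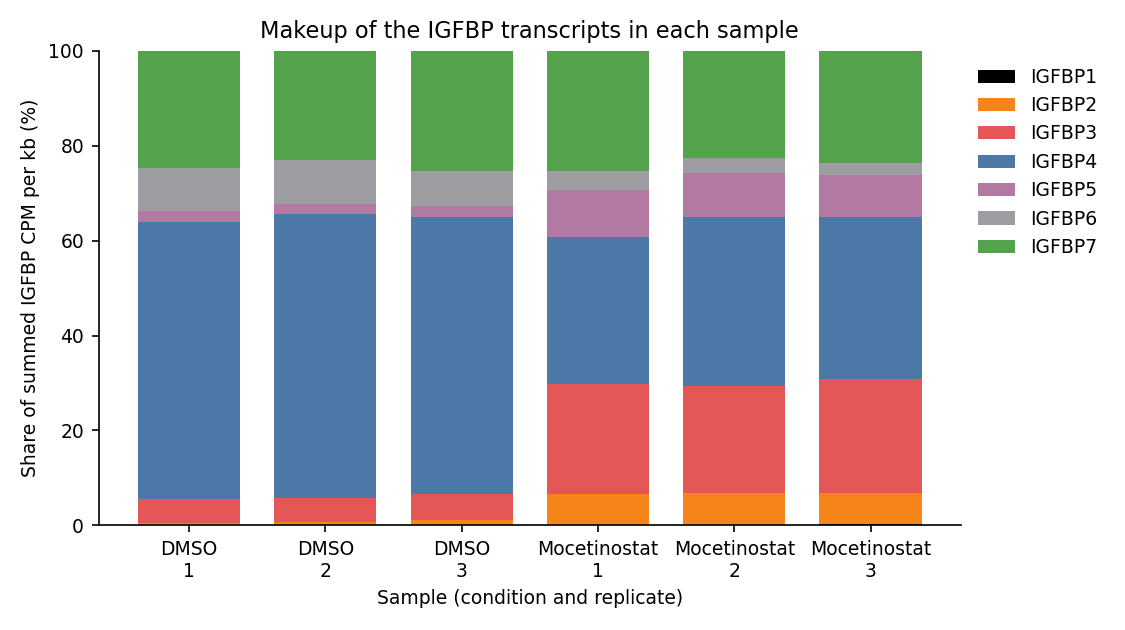
Share (%) of each IGF binding protein gene in the summed CPM per kilobase of exon, as 1 stacked bar per sample (3 DMSO, 3 mocetinostat). The *IGFBP4* share is larger in each DMSO-treated sample than in each mocetinostat-treated one, with means of 58.9% and 33.5%, and those of *IGFBP2*, *IGFBP3*, and *IGFBP5* are larger with mocetinostat.

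Around these genes, 64 further genes of the IGF axis were taken as a list by role. Of them 56 were tested, 15 were URGs, and 4 were DRGs, against backgrounds of 20.2% and 8.18%. In all, 25 were higher and 21 lower at an adjusted p under 0.05 (backgrounds of 32.9% and 31.4%), and their median log2 fold change was 0.12.

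Proteases that cut IGF binding proteins set IGF free, and stanniocalcins inhibit some of them. Of 10 such genes, 9 were tested, 4 were URGs, and none was a DRG (backgrounds of 20.2% and 8.18%), with a median log2 fold change of 0.74. *STC1*, encoding a stanniocalcin, rose from 10.9 ± 1.09 to 175 ± 18.2 CPM (SD, n = 3), or by 3.98 on the log2 scale (edgeR adjusted p = 1.84e-39). *STC2*, its paralog and the gene of the list with the highest CPM, rose from 505 to 697 CPM (log2 fold change 0.46, edgeR adjusted p = 1.34e-07) without being a URG. *PAPPA*, whose protease product the stanniocalcins block, had a log2 fold change of 0.10 (edgeR adjusted p = 0.648). *PLAT* (2.31), *ADAM28* (2.96), and *HTRA1* (1.51) were the other URGs, all encoding proteases, and *PLAU*, encoding urokinase, fell by 0.64 on the log2 scale (edgeR adjusted p = 2.91e-08).

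Among the other receptors and binding proteins, *INSR*, the insulin receptor, rose from 74.0 to 108 CPM (log2 fold change 0.53, edgeR adjusted p = 1.84e-05). *IGFBPL1*, encoding a protein related to IGF binding proteins, was a URG, rising from 6.36 ± 2.02 to 23.2 ± 4.10 CPM (SD, n = 3; log2 fold change 1.79, edgeR adjusted p = 7.42e-10). *IGFALS*, which encodes the acid-labile subunit that joins IGFBP3 in serum, did not pass the filter. The IGF2 mRNA binding proteins, which bind *IGF2* mRNA in the cytoplasm and many other mRNAs, did not move together. *IGF2BP1* fell from 195 ± 10.8 to 35.6 ± 3.56 CPM (SD, n = 3), or by 2.47 on the log2 scale (edgeR adjusted p = 1.06e-30), whereas *IGF2BP2* rose from 270 to 315 CPM (0.23, edgeR adjusted p = 0.0117). *IGF2BP3* had a log2 fold change of -0.25 (edgeR adjusted p = 0.104).

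Downstream of the receptors, 14 of 15 adaptors and feedback genes were tested, with 4 URGs and 0 DRGs (backgrounds of 20.2% and 8.18%), 7 higher and 5 lower at an adjusted p under 0.05 (32.9% and 31.4%), and a median log2 fold change of 0.19. *GRB14*, encoding an adaptor that inhibits receptor kinases, was counted 1, 2, and 0 times in the DMSO-treated samples and 29, 11, and 18 times after mocetinostat, so that it was at least 14.96-fold higher, taking 3 counts per DMSO-treated library as the limit. *IRS2* (1.44), *SH2B2* (1.22), and *SOCS3* (1.70) were the other URGs by log2 fold change, *SOCS2* fell by 0.99 (edgeR adjusted p = 7.36e-08), and *PTPN1*, with the highest CPM of the list, rose from 464 to 581 CPM (0.32, edgeR adjusted p = 8.81e-05). Of 13 tested PI3K and AKT genes, 3 were URGs and 1 was a DRG, beside the same backgrounds. *PIK3R1*, a regulatory subunit of PI3K, had the largest rise (log2 fold change 2.19, edgeR adjusted p = 6.17e-14), beside *PIK3CD* (1.35) and *PIK3R3* (1.01). The kinase *AKT2* fell from 138 to 67.1 CPM (-1.05, edgeR adjusted p = 1.0e-13) and *AKT1* from 123 to 82.0 CPM (-0.58, edgeR adjusted p = 2.22e-06).

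Of 15 AKT targets and genes of mTORC1, the growth-controlling kinase complex, 3 were URGs and 2 were DRGs (backgrounds of 20.2% and 8.18%), with 3 higher and 7 lower at an adjusted p under 0.05 (32.9% and 31.4%). *FOXO1*, a transcription factor that AKT keeps out of the nucleus, rose from 3.10 to 15.4 CPM (log2 fold change 2.39, edgeR adjusted p = 3.63e-10), beside *FOXO4* (1.42) and *EIF4EBP2* (1.02). *AKT1S1*, encoding an AKT substrate in mTORC1, fell from 186 to 51.2 CPM (-1.80, edgeR adjusted p = 2.47e-23), as did *RPTOR*, the scaffold of mTORC1, by 1.41 on the log2 scale. *GSK3B*, with the highest CPM of the list, was at 176 and 191 CPM (0.11, edgeR adjusted p = 0.285).

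**Figure D5:**
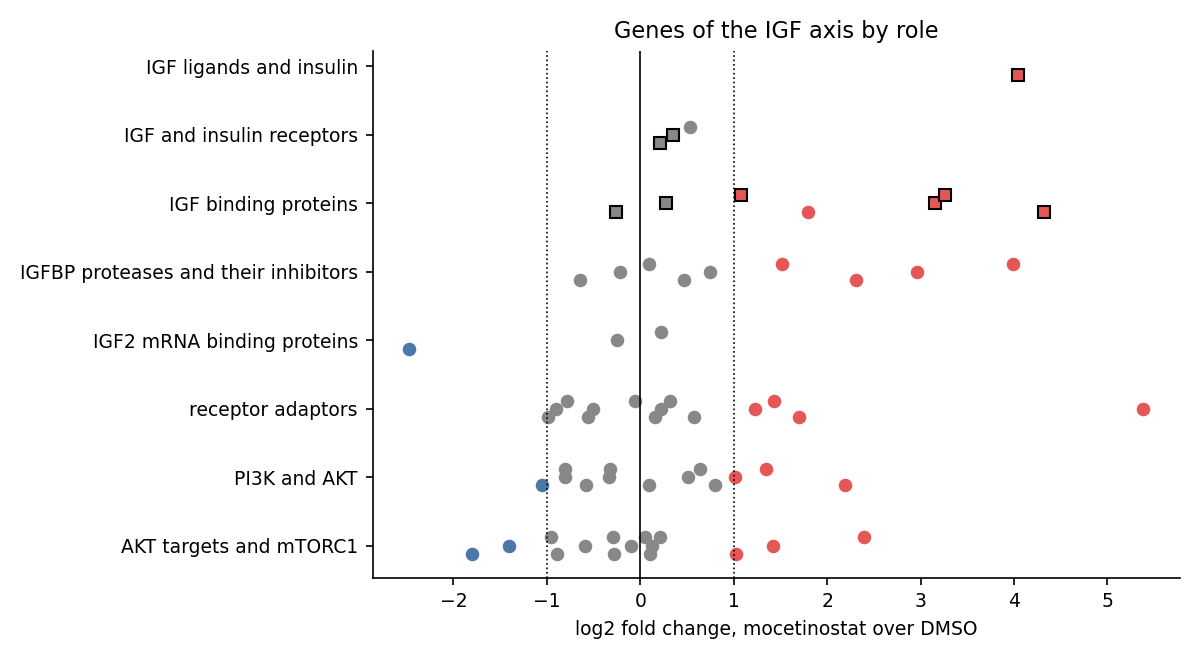
Log2 fold change of each tested gene of the IGF axis, arranged by role (rows), with squares for the IGF binding proteins, receptors, and ligand described first and circles for the other genes (red, URGs; blue, DRGs; grey, others). Dotted lines mark -1 and 1; the point at the far right is *GRB14*, whose fitted value rests on at most 2 counts per DMSO-treated sample.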

How the data were processed

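RNA-Seq was analysed in 3 DMSO-treated and 3 mocetinostat-treated samples of TC28a2 cells. The deposited table holds whole raw counts per gene, which the authors made by removing ribosomal RNA reads, aligning single reads to GRCh38 with STAR 2.6.1d, and assigning them with featureCounts 1.6.4 (versions from the submitters' processing notes). The strand setting and the treatment of shared reads are not given in the sources used here. The total count per sample was between 1619344 and 11031132; without molecular identifiers, limits of detection describe counting error alone.

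Genes passing filterByExpr (minimum count 10; 13966 genes) were tested with edgeR 4.0.16 (limma 3.58.1, R 4.3.3) by TMM factors, a treatment-only quasi-likelihood fit, and Benjamini-Hochberg adjustment over all of them. SE is the log2 fold change over the root of F. Count ratios used an exact permutation test over samples, after 0.5 was added to each count. Python 3.11.15, pandas 2.3.3, scipy 1.17.1, and matplotlib 3.10.9 made summaries and figures. Positions, exon lengths, and overlaps come from GENCODE 44 (99.5% of identifiers matched) and upstream windows from RefSeq. The paper names an Ensembl build as its reference, and whether the counted exons match these lengths and overlaps was not checked. The fits were tried on simulated counts with 200 changed genes, where edgeR called 100% of the 195 it tested correctly and DESeq2 89% of 200. With far fewer changed genes than the 3969 called here, this simulation cannot show how the scaling behaves in these data. Alternatives were RLE factors, library size only, *GAPDH* scaling, no filter, 10 counts in every sample, DESeq2 1.42.0, glmTreat, thinning, a replicate block, and each sample left out. Replicates within a condition differed by more than sampling noise (chi-square per degree of freedom 1.93 to 7.95), so each sample counted.

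The genes and lists were chosen with earlier results of these data known. All 10 genes are named, and from each list the tested gene with the largest and the smallest log2 fold change and that with the highest CPM. *PAPPA*, *IGF2BP3*, *IGF1*, *INS*, *IGFALS*, *H19*, and the remaining URGs and DRGs were named after their values were seen.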

Additional observations from a re-analysis of the deposited data

How the results depend on the processing

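*IGFBP2*, *IGFBP3*, *IGFBP5*, and *IGF2* were URGs under every alternative in which they were tested; *IGF2* was not tested when 10 counts were required in every sample. Their log2 fold changes ranged over 3.86 to 4.86, 3.01 to 3.795, 2.90 to 3.68, and 3.73 to 4.65. *IGFBP7* ranged over 0.82 to 1.61 and was lost as a URG without the filter and with glmTreat. Scaled to *GAPDH*, *IGFBP6* was at 0.28, and without the filter *IGF1R* was at -0.038, both turned in sign, because each setting moved the median of all genes. *IGFBP4* (adjusted p 6.04e-09 to 0.9), *IGF1R* (1.29e-09 to 0.757), and *IGF2R* (7.35e-12 to 0.419) were above or below 0.05 depending on the setting (besides glmTreat, with 1.0 for each), and without 1 sample reached 0.108, 0.0869, and 0.00148 at most.

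Over all genes, *GAPDH* scaling gave 4425 URGs and 284 DRGs, no filter 2120 DRGs, 10 counts in every sample 1620 URGs and 704 DRGs, and glmTreat 465 DRGs; DRGs of the IGF axis numbered 2 and 11 under the first of these settings and under no filter. The summed binding protein level differed by 1.59 on the log2 scale and by 2.11 scaled to *GAPDH*. With the replicate number as a block, 2798 URGs and 1133 DRGs were called, among them the same 5 IGF genes. Same-numbered samples did not deviate together (correlations 0.0373, 0.027, and -0.0402 over 9997 genes), so the numbers were not taken as pairs. A ratio of *IGFBP3* to *IGFBP1* was not computed, since *IGFBP1* had 0 counts in 5 of 6 samples. Mocetinostat-treated libraries were shallower, and *IGF2*, *IGFBP2*, and *IGFBP1* had few counts with DMSO.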

Other observations

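The CCN family, once called IGF binding protein-related proteins and encoding matrix-associated proteins active in cartilage, was measured as a list of 6 genes, of which 3 were tested and all 3 were URGs (background 20.2%). *CCN1* rose from 385 to 1288 CPM (log2 fold change 1.74, edgeR adjusted p = 1.25e-34). *CCN2*, the connective tissue growth factor gene, rose from 327 to 708 CPM (1.11, edgeR adjusted p = 1.89e-22), and *CCN3* rose from 3.39 to 21.8 CPM (2.64, edgeR adjusted p = 8.11e-14).

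Of 7 genes listed around the IGF genes on their chromosomes, at unlike distances, 4 were tested, with 1 URG and 1 DRG (backgrounds of 20.2% and 8.18%). *ADCY1*, an adenylyl cyclase gene on the *IGFBP1* side, rose from 42.1 to 109 CPM (1.36, edgeR adjusted p = 4.64e-16). *TNS3*, a tensin gene on the other side of *IGFBP3*, fell from 147 to 66.3 CPM (-1.16, edgeR adjusted p = 1.94e-15). *TNS3* starts at base 47275154, far from the end of *IGFBP3* at 45921874, whereas *IGFBP1* and *IGFBP3* lie 18.6 kb apart. *RPL37A*, a ribosomal protein gene near *IGFBP2*, had the highest CPM of the list and fell from 436 to 317 CPM (-0.45, edgeR adjusted p = 5.45e-07). *H19*, the imprinted noncoding RNA gene beside *IGF2*, was not tested, with 16, 5, and 5 counts in the DMSO-treated samples and 10, 3, and 2 in the others. Tested genes of this list thus moved in both directions, and the only DRG among them was the distant *TNS3*.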
